A study of Homo sapiens with 5 samples.

Results

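The cells described here are the dividing progenitors of day 22 (D22) in a GnRH neuron differentiation of WA09, a human embryonic stem cell line. They were chosen by their own readout: a D22 barcode was a member when it had at least 1500 UMIs (unique molecular identifiers, each standing for 1 captured transcript), at least 1000 detected genes, under 20% of its UMIs from mitochondrial genes, at least 5 UMIs of MKI67 and TOP2A together, and 0 UMIs of IRX1, IRX2, IRX3 and IRX5. Of 9824 D22 barcodes, 9539 passed the limits on depth, genes and mitochondrial share, and 1624 of these were members, 17.0% of the kept cells (exact binomial 95% interval 16.3% to 17.8%). The kept cells of D22, D24 and D26, the libraries read here, number 29709 in all.

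GEO's labels give the genotype of all libraries as wild type. The cells had gone through dual SMAD inhibition with dorsomorphin and SB431542 towards neural progenitors, then FGF8, were frozen and thawed on the way and replated, and had received the Notch inhibitor DAPT since the day before collection, all in cultures without the Wnt pathway inhibitor XAV939. All groups of cells compared below, members and others, share that history. D24 and D26 cells of the same protocol had been longer in DAPT. Each day is 1 droplet library of a papain-dissociated culture, so no value has a replicate, day and library cannot be told apart, and every interval covers counting error only.

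A progenitor in cycle copies its DNA in S phase under E2F-driven enzymes, then builds up the mitotic program in G2 and divides in M phase. MKI67 coats mitotic chromosomes and TOP2A untangles sister chromatids, and both are made mainly from S phase to mitosis, so a rule on their UMIs favours late S, G2 and M cells over G1 cells. In the developing forebrain, SOX2 maintains the progenitor state and Notch signalling keeps neighbouring progenitors undifferentiated through HES repressors. Proneural factors such as NEUROG1 oppose this and start neuron formation, and most neurons appear once the CDK inhibitors and differentiation genes have ended the cycle.

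The members had 28732207 UMIs in all. They were deeper than the cells they are compared with: the median was 16368 UMIs and 4031 genes per member (quartiles 11794 and 22336 UMIs) against 11725 UMIs and 3298 genes in the 5898 kept cells with 0 MKI67 and TOP2A UMIs, called not-dividing cells below. That name stands for the count of 0 only, and progenitors in G1 phase can be among these cells. A fixed number of UMIs is reached more easily in a deep cell, so depth and the rule are linked. Some values are therefore also given in cells of 10000 to 15000 UMIs, a range that held 546 members and 3680 not-dividing cells. The 865 members with at least 20 MKI67 and TOP2A UMIs had a median of 20902 UMIs. Most of them fall outside that range, so the mix of members changes there along with depth. The median mitochondrial share was 3.04% in members and 3.30% in not-dividing cells. Members and D24 cells shared 6 barcodes, and members and D26 cells 3, where all kept D22 cells shared 26 and 32. Scrublet, which scores a barcode by its likeness to summed pairs of cells, gave a score of at least 0.25 to 139 members (8.56%), to 2.37% of not-dividing cells and to 4.46% of all kept cells. Such members were not removed, and some values are also given without them.

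The genes that chose the cells are given as a description. Members had a median of 16 TOP2A UMIs (highest 117) and 6 MKI67 UMIs (highest 56), and a median of 21 for the sum, with quartiles of 10 and 50. Only 1 member had no TOP2A UMI and 61 had no MKI67 UMI. TOP2A (ENSG00000131747, GRCh38 chromosome 17, 40388525 to 40417896, minus strand) stood at 1381 CPM in members, where CPM is the UMIs of a gene over all cells of a group scaled to a common total of 1e6 UMIs. MKI67 (ENSG00000148773, chromosome 10, 128096659 to 128126423, minus strand) stood at 483 CPM. In the cells just outside the rule, the 272 cells with 3 or 4 UMIs and no IRX UMI, the summed level of a list of 52 G2/M genes was 4321 CPM, and in the 175 members just inside it, with 5 or 6 UMIs, it was 6234 CPM. The intervals of these levels, 4252 to 4391 and 6130 to 6338 CPM, did not overlap, and members with at least 20 UMIs stood at 23231 CPM. G2/M genes are close to those the rule used, so the levels do not check where the limit lies. They are sums over cells, so they cannot tell a gradient between cells from a changing mix of cells.

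The marker SOX2, which the rule did not use, was higher in members. SOX2 (ENSG00000181449, chromosome 3, 181711925 to 181714436) stood at 410 CPM in members (exact Poisson 95% interval 403 to 418) and 136 CPM in not-dividing cells. The log2 ratio was 1.59, with an interval from 1.55 to 1.63. With each cell thinned to 1500 UMIs, 44.6% of members (42.2% to 47.1%) and 16.3% of not-dividing cells (15.4% to 17.3%) had a SOX2 UMI. Unthinned, these shares were 94.0% and 55.0%, and the median member held 6 SOX2 UMIs where the median not-dividing cell held 1. GEO labels the cell type as neuron, and of the not-dividing cells 79.5% held a UMI of the neuronal gene STMN2 before thinning and 58.0% after, against 58.1% and 19.9% of members. For scale, COL1A1, a collagen of mesenchyme, had a UMI in 0.0616% of thinned members and 0.119% of thinned not-dividing cells (unthinned 3.82% and 0.916%). Because the compared cells differ in their neuronal genes, the 2746 not-dividing cells that had at least 1 SOX2 UMI and no IRX UMI are set beside the members below.

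Genes that divide the work of replication and mitosis also share short promoter sequences. Many genes of S phase carry E2F motifs, and many of G2 and M carry the cell cycle genes homology region (CHR), often near CCAAT boxes. The letters searched were TTTGAA for CHR, CCAAT, and for E2F TTTCCCGC, GGCGGGAA or TTTGGCGC, each on both strands in the 250 bases before a start in the RefSeq promoters of GRCh38.p14. The E2F letters TTTCCCGC and GGCGGGAA can overlap in 1 site when read on opposite strands. CHR stood in 26 of 56 promoters of the G2/M genes (46.4%), in 4 of 43 promoters of the G1/S genes (9.30%) and in 13.3% of all 35116 promoters. An E2F motif stood in 17 of the 43 G1/S promoters (39.5%), in 3 of the 56 G2/M promoters (5.36%) and in 3.94% of all. CCAAT was found in 65.1% of G1/S, 64.3% of G2/M and 32.0% of all promoters. The table held promoters for 43 of 52 G2/M genes and 32 of 43 G1/S genes, some with more than 1 start, and a match is a run of letters, not a bound site.

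The 4 promoters below show the difference, each as the 150 bases before the start with the matched letters in capitals. CCNB2 (cyclin B2) and CDC20 (which activates the anaphase-promoting complex) hold CHR and CCAAT, while TYMS (thymidylate synthase) and MCM6 (a subunit of the replicative helicase) hold an E2F motif. MCM6 also holds CCAAT, as ATTGG on the strand shown. They lie at chr15:59104996-59105145 (plus strand), chr1:43358831-43358980 (plus strand), chr18:657503-657652 (plus strand) and chr2:135876444-135876593 (minus strand) of GRCh38.p14.
CCNB2: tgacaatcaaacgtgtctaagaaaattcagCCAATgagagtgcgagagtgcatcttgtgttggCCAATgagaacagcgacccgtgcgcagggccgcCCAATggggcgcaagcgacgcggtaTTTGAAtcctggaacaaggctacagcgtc
CDC20: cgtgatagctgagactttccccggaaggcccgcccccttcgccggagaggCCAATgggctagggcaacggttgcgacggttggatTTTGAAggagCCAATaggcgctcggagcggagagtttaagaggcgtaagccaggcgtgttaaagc
TYMS: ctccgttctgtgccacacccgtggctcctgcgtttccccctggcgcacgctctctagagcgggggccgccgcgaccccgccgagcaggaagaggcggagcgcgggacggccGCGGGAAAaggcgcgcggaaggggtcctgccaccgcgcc
MCM6: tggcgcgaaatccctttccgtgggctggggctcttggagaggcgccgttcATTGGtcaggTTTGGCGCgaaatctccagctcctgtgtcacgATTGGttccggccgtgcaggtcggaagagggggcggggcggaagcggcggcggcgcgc

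The comparison of members with not-dividing cells covered the 5969 genes that reached 20 CPM in either group. Of these, 473 (7.92%) were at least 2-fold higher in members and 252 (4.22%) at least 2-fold lower, and the median log2 ratio over all of them was -0.02. Genes of the cell cycle lists made up 105 of the 473 and 2 of the 252. The rule used this contrast, so these counts describe the members and nothing is read from them. The shares of 7.92% and 4.22% are the background for the counts of each list below. With a floor of 50 CPM, 255 of 3145 genes were higher and 120 lower. With no floor other than 10 UMIs, 1553 of 18200 genes were higher and 1867 lower. In cells of 10000 to 15000 UMIs, 394 of 5949 genes were higher and 291 lower, which is the background for list counts in that range. Some genes passed the floor through 1 group alone, where they are high, and this by itself favours a ratio past 2-fold. The cell cycle lists took 3.45% of the members' UMIs and 0.579% of those of not-dividing cells.

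The mitotic genes are described first, since the rule chose the members by a pair of them and so fixed that such genes are higher. Of 52 G2/M genes, all had at least 20 CPM in 1 group and 49 were at least 2-fold higher in members, with a median log2 ratio of 5.55. Their summed level was 18774 CPM in members and 2213 CPM in not-dividing cells. The highest ratio among genes with at least 50 CPM was that of HJURP (ENSG00000123485, chromosome 2, 233833416 to 233854566), the chaperone that loads the centromeric histone CENPA, at 77.1 against 0.23 CPM and a log2 ratio of 8.36 (7.68 to 9.15). CKAP2L, a spindle protein, followed at 8.05, and CEP55, which acts in the final cut between daughter cells, at 7.99. DLGAP5 and NUSAP1, both spindle assembly factors, stood at 536 and 797 CPM in members and 2.26 and 3.92 CPM in not-dividing cells. The most abundant G2/M genes were CENPF, at 2147 against 40.0 CPM, and the chromatin protein HMGB2, at 2062 against 62.5 CPM. A CENPF UMI was present in 83.6% of thinned members and 5.56% of thinned not-dividing cells (unthinned 99.3% and 29.5%). The 3 G2/M genes short of 2-fold were CBX5, CTCF and JPT1, with log2 ratios of 0.92, 0.63 and 0.36. They have general roles outside mitosis, and JPT1 shares an exon with SUMO2, so its count is uncertain.

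The parts of the chromosome machinery differed in the size of their ratios. The rule favoured these genes as well, so their order is a description only. All 14 kinetochore and spindle checkpoint genes were past 2-fold, with a median log2 ratio of 6.64. They run from NUF2, a microtubule-binding subunit of the kinetochore, at 320 against 1.34 CPM (log2 ratio 7.91, 7.62 to 8.21), to BUB3, at 245 against 46.8 CPM (2.39, 2.33 to 2.45). The 4 genes of the chromosomal passenger complex, which corrects wrong microtubule attachments, had a median of 4.73. BIRC5 was the most abundant of them at 471 against 22.5 CPM, and the kinase AURKB stood at 99.2 against 4.19 CPM. All 8 condensin genes, whose products fold mitotic chromosomes, were past 2-fold with a median of 3.05. Within condensin, NCAPH had a log2 ratio of 7.04 and SMC4, the most abundant at 367 CPM, one of 3.17. NCAPD3 and NCAPH2, which belong to condensin II, stood at 1.66 and 1.59.

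Replication genes were higher too, by less. The rule favours cells from late S phase to mitosis, so this direction and order are a description only. Of 43 G1/S genes, 30 had at least 20 CPM in 1 group and 24 of these were past 2-fold, with a median of 1.98 and a summed level of 2606 against 767 CPM. RAD51AP1, a repair factor, had the largest ratio at 5.10 (4.84 to 5.38), and NASP, a histone chaperone, the most UMIs, at 570 against 259 CPM. TYMS stood at 187 against 20.9 CPM, the ribonucleotide reductase subunit RRM2 at 74.7 against 3.98 CPM, and PCNA, the sliding clamp of replication, at 58.1 against 13.0 CPM. UNG, a DNA glycosylase counted among G1/S genes, was the only one lower in members, at 21.2 against 36.0 CPM (-0.76, -0.89 to -0.64). Of the 17 histone genes, 16 were past 2-fold with a median of 2.64. The replication histone HIST1H4C stood at 1884 against 238 CPM and the variant H2AFZ at 2779 against 532 CPM. In cells of 10000 to 15000 UMIs, 13 of 23 G1/S genes and 9 of 13 histone genes were past 2-fold, with median log2 ratios of 1.5 and 1.24. Replication histone transcripts mostly lack a poly(A) tail and resemble each other, so their levels in poly(A)-primed libraries are uncertain.

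Cyclins showed both directions, and the rule favoured CDK1 and the cyclins of S phase to mitosis as well. The mitotic cyclins CCNB1 and CCNB2 stood at 573 and 530 CPM in members against 16.3 and 49.9 CPM, and CCNA2 of S and G2 phase at 172 against 1.72 CPM. CDK1, their kinase partner, stood at 309 against 2.53 CPM (log2 ratio 6.93, 6.72 to 7.15). The D cyclins CCND1 and CCND2, which act in G1 phase, were lower in members: CCND1 at 54.2 against 131 CPM (-1.27, -1.35 to -1.20) and CCND2 at 45.2 against 130 CPM (-1.53, -1.61 to -1.44). CDK4, with which they pair, differed little, at 171 against 154 CPM. Under the floor of the comparison, CCND3 stood at 2.68 against 2.23 CPM, and the E cyclins CCNE1 and CCNE2 at 5.12 against 1.35 CPM and 8.46 against 3.35 CPM (log2 ratios 1.92 and 1.34). Against SOX2-positive not-dividing cells, CCND1 and CCND2 were lower by almost the same amount, with log2 ratios of -1.33 and -1.45. Progenitors in G1 phase can be among the cells of both comparisons, and their part in these ratios was not tested.

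**Figure D1:**
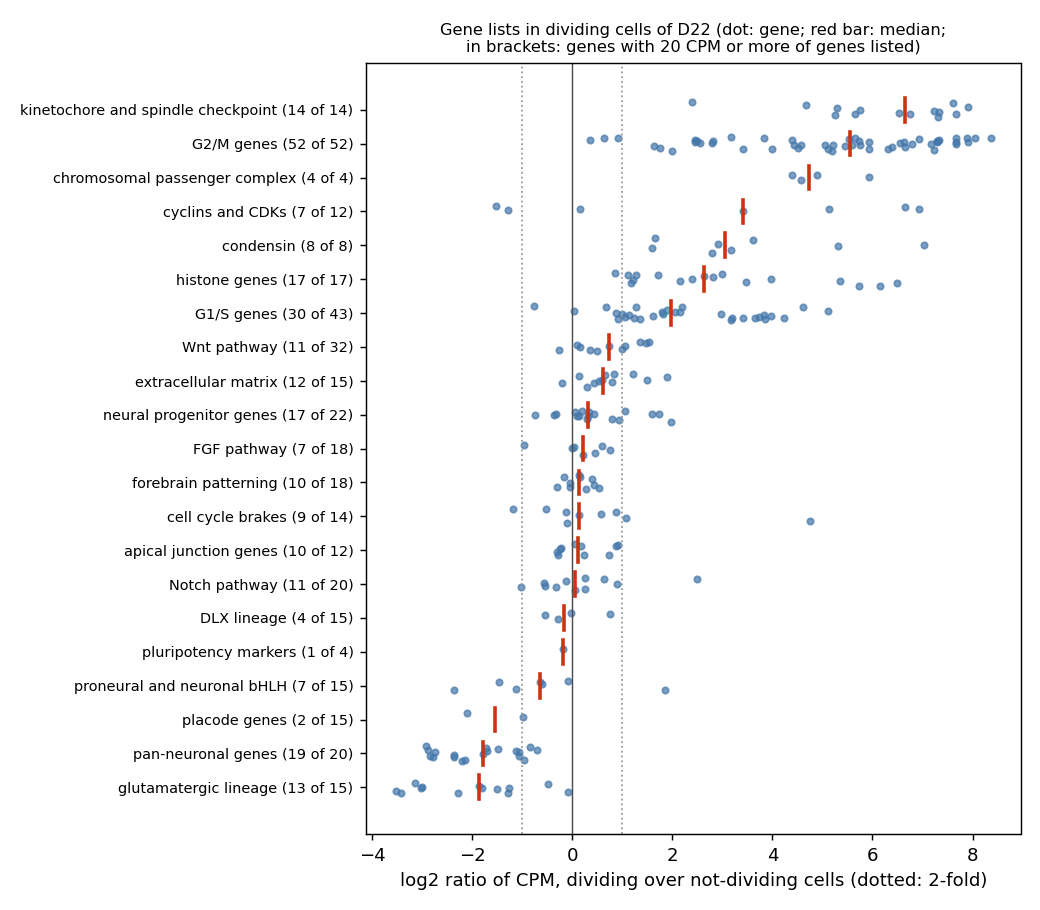
Log2 ratio of CPM, dividing over not-dividing cells of D22, for each gene (dot) of each list that had at least 20 CPM in 1 group, with the median as a red bar and dotted lines at 2-fold. Kinetochore and G2/M genes lie furthest right with medians of 6.64 and 5.55, the G1/S median lies at 1.98, and the pan-neuronal and glutamatergic lists lie furthest left at -1.77 and -1.87.

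To compare cells at 1 depth, the 1598 members with at least 5000 UMIs were thinned to 5000 each, which left out 26. The G1/S list then gave a median of 11 UMIs per member (10th and 90th percentiles 5 and 22) and the G2/M list 85 (27 and 160). Of these members, 472 were above both medians, 311 above the G1/S median only, 325 above the G2/M median only and 490 at or below both. In 5837 not-dividing cells thinned in the same way, the medians were 3 and 11 UMIs. None of those reached the members' G2/M median, which allows a share of up to 0.0632% at the 95% level, and 7 reached the members' 10th percentile. The G1/S list separated them less: 90 not-dividing cells (1.54%, 1.24% to 1.89%) reached the members' G1/S median, and 1743 (29.9%) the members' 10th percentile of 5 UMIs. The G1/S list thus overlapped more between the groups than the G2/M list, whose genes are close to those the rule used. It also gave fewer UMIs per cell, so counting error weighs more on it, and that part was not tested.

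**Figure D2:**
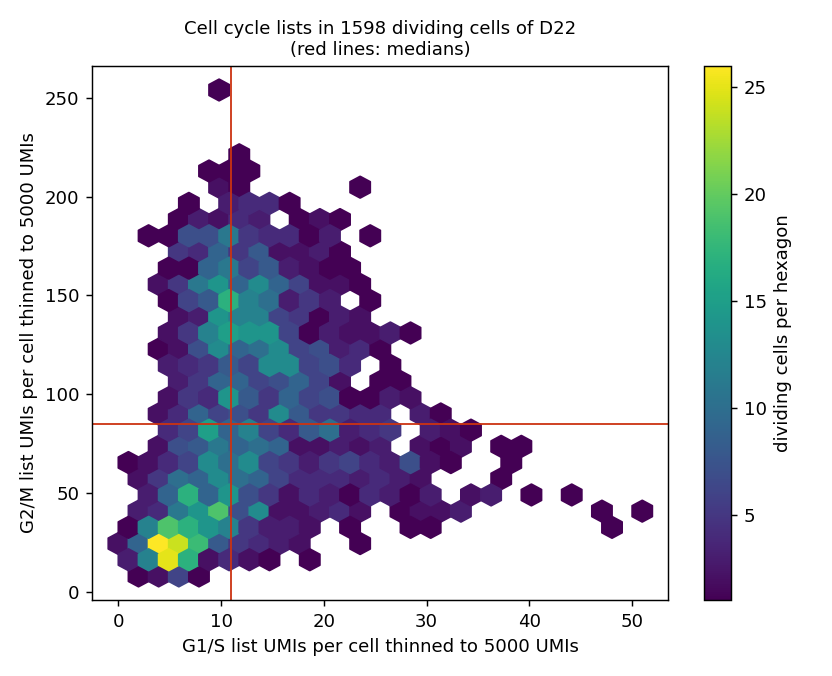
G1/S list UMIs against G2/M list UMIs in each of 1598 dividing cells thinned to 5000 UMIs, with colour for the number of cells per hexagon and red lines at the medians of 11 and 85 UMIs. The densest area lies low on both axes, and the G2/M axis stretches up to 254 UMIs while the G1/S axis ends at 51.

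Progenitor genes differed in their ratios between members and not-dividing cells. Of 22 neural progenitor genes, 17 had at least 20 CPM in 1 group, 4 of these were past 2-fold higher and none lower, and the median log2 ratio was 0.31. The 4 were SOX2, its relative SOX1 (66.2 against 31.9 CPM), HMGA2, a chromatin protein of early progenitors (120 against 30.4 CPM, log2 ratio 1.98), and REST, the repressor of neuronal genes (59.7 against 17.9 CPM, 1.73). REST passed the floor through the members alone. The intermediate filaments of progenitors did not differ much. VIM, the most abundant gene of the list, stood at 3538 against 3313 CPM (0.09), and NES at 283 against 224 CPM (0.34). FABP7, a radial glia gene, had the lowest ratio, at 86.8 against 146 CPM (-0.75, -0.81 to -0.68). PROM1, an apical membrane protein, was under the floor but 15.0 against 3.19 CPM. Against SOX2-positive not-dividing cells, 2 of 17 were past 2-fold higher, with a median of 0.09. There the log2 ratio of HMGA2 was 1.77 and that of REST 1.44, while NES, VIM and TTYH1 stood at 0.09, -0.04 and -0.06. SOX2 itself was higher in members than in cells chosen for having it, at 410 against 225 CPM.

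The Notch pathway was read only in cells under a Notch inhibitor, with no untreated cells beside them. HES5 and HES1, direct targets of Notch in progenitors, had low summed levels in both groups: HES5 stood at 27.4 CPM in members and 26.2 CPM in not-dividing cells, and HES1 at 3.1 and 1.6 CPM. A HES5 UMI was present in 3.94% (3.1% to 5.0%) of thinned members and in 3.48% (3.02% to 3.98%) of thinned not-dividing cells (unthinned 25.9% and 17.9%). The receptor NOTCH2 was past 2-fold, at 24 against 4.25 CPM (log2 ratio 2.49, 2.30 to 2.69), while NOTCH1 stood at 48.8 against 40.7 CPM. The ligand DLL1 was higher in members at 404 against 218 CPM (0.89, 0.85 to 0.92). DLL3, which acts inside the cell against Notch, was lower at 269 against 545 CPM (-1.02, -1.06 to -0.99), a ratio that ran from -1.13 to -0.92 over the settings tried. HES6, which antagonises HES1, stood at 1047 against 1527 CPM (-0.55). In all, 1 of the 11 pathway genes past the floor was 2-fold higher and 1 lower, with a median of 0.06. NOTCH2 passed the floor through the members alone. With a floor of 50 CPM, none of 7 was higher and 1 was lower. In cells of 10000 to 15000 UMIs, 2 of 12 were higher, NOTCH2 and DLL1 (log2 ratios 2.59 and 1.34), and none lower, with DLL3 at -0.97. DLK1, a ligand-like membrane protein, was the most abundant at 3509 against 3802 CPM.

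Of 7 proneural and neuronal bHLH factors past the floor, 3 were at least 2-fold lower in members and 1 higher, with a median log2 ratio of -0.65. NEUROG2 passed the floor through the not-dividing cells alone, and with a floor of 50 CPM 2 of 6 were lower and 1 higher. In cells of 10000 to 15000 UMIs, 2 of 7 were lower, since NEUROG2 stood at -0.78. NEUROG1 (ENSG00000181965, chromosome 5, 135534282 to 135535964) was lower in members, at 366 against 574 CPM (-0.65, -0.68 to -0.62). NEUROD1, which shares an exon with CERKL, stood at 108 against 165 CPM (-0.61), NEUROD4 at 47.2 against 131 CPM (-1.47), NEUROG2 at 9.40 against 20.5 CPM (-1.13) and NHLH1 at 35.1 against 180 CPM (-2.36, -2.45 to -2.26). INSM1, which drives the exit from apical division, differed little, at 249 against 266 CPM. Without the members of a Scrublet score of at least 0.25, NHLH1 was 24.1 CPM.

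Members were also divided by their UMIs of DLX genes and of NEUROD4, NHLH1 and TBR1. DLX genes are known from GABA neurons, NEUROD4 and NHLH1 are bHLH factors of neuron formation and TBR1 is a factor of glutamatergic neurons. With at least 2 UMIs as the limit, 194 members (11.9%, 10.4% to 13.6%) had DLX genes only, 418 (25.7%, 23.6% to 27.9%) had NEUROD4, NHLH1 or TBR1 only, 17 (1.05%) had both and 995 (61.3%) neither. With at least 1 UMI, 43 members (2.65%) had both. The groups with 2 UMIs differed in depth, with medians of 17444, 20900, 34397 and 14383 UMIs in that order, and depth raises the chance of reaching a fixed limit. In SOX2-positive not-dividing cells the shares with at least 2 UMIs were 13.1%, 57.2%, 1.02% and 28.6%, at a median depth of 12148 UMIs. A Scrublet score of at least 0.25 was given to 8 of the 194 DLX members (4.12%), 99 of the 418 NEUROD4, NHLH1 or TBR1 members (23.7%), 13 of the 17 with both and 19 of the 995 with neither (1.91%). The part of doublets in these groups was not tested beyond leaving such cells out.

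Among genes that did not define these groups, GSX2, a ventral forebrain homeobox factor, stood highest for the DLX members, at 73.9 CPM against 0.793 CPM in NEUROD4, NHLH1 or TBR1 members (7 UMIs) and 11.2 CPM in members with neither. NEUROG1 was at 61.4, 548 and 334 CPM in the same order. SSTR2, a somatostatin receptor, stood at 3.70 CPM in DLX members and 124 CPM in NEUROD4, NHLH1 or TBR1 members, LHX9, a LIM homeobox factor, at 8.82 and 143 CPM, and RSPO3, a secreted enhancer of Wnt signalling, at 1.42 (5 UMIs) and 67.7 CPM. NEUROD1 stood at 12.2 and 210 CPM. TAGLN, an actin-binding protein, was at 120 and 4.42 CPM, and SOX21 at 81.9 and 17.1 CPM. CDKN1C, a CDK inhibitor, was at 2200 CPM in DLX members, 1277 CPM in NEUROD4, NHLH1 or TBR1 members and 997 CPM in those with neither, and HES6 in another order, at 755, 1558 and 825 CPM. Other levels lay closer together: DLL1 stood at 430.3 and 408 CPM, PAX6 at 102 and 98.9 CPM, and the G2/M list at 19253 and 17835 CPM. Without members of a Scrublet score of at least 0.25, GSX2 was at 77.6 and 0.340 CPM, NEUROG1 at 47.4 and 559 CPM and CDKN1C at 2227 and 1182 CPM in the 186 DLX members and 319 NEUROD4, NHLH1 or TBR1 members left.

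**Figure D3:**
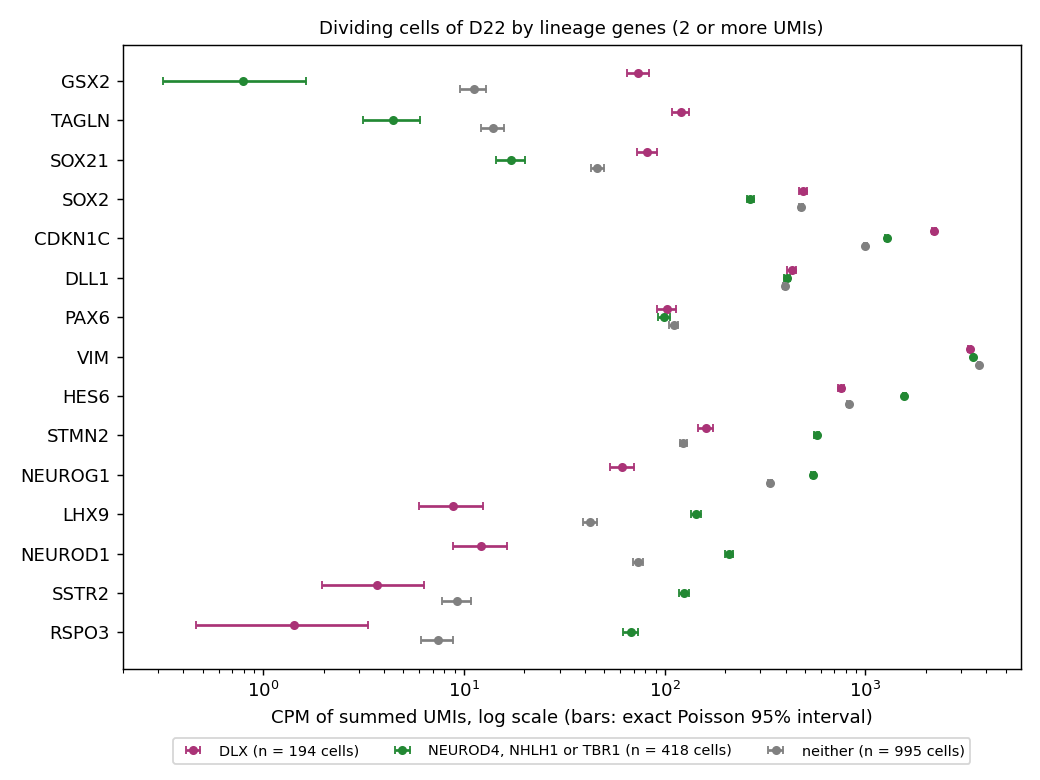
CPM of summed UMIs, on a log scale, of 15 genes in dividing cells with at least 2 UMIs of DLX genes only (194 cells), of NEUROD4, NHLH1 or TBR1 only (418 cells) or of neither (995 cells), with exact Poisson 95% intervals. GSX2 and TAGLN lie highest in the DLX cells, NEUROG1, LHX9, NEUROD1, SSTR2 and RSPO3 in the NEUROD4, NHLH1 or TBR1 cells, and DLL1, PAX6 and VIM lie close together.

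Of the 13 glutamatergic lineage genes past the floor, 11 were at least 2-fold lower and none higher, with a median log2 ratio of -1.87. With a floor of 50 CPM, 3 of 5 were lower and none higher, with a median of -1.29. EOMES, a factor of intermediate progenitors, stood at 8.07 against 71.2 CPM (-3.14, -3.34 to -2.95), TBR1 at 3.62 against 41.5 CPM and SLC17A6, the vesicular glutamate transporter, under the floor at 0.766 against 16.6 CPM. EOMES and TBR1 passed the floor through the not-dividing cells alone, and TBR1 shares an exon with SLC4A10. LHX2 and EMX2, which are progenitor factors as well, stood at 240 against 255 CPM and 248 against 345 CPM and are the 2 that were not 2-fold lower. In the DLX lineage list, 4 genes passed the floor and none was past 2-fold, with a median of -0.16. With no floor other than 10 UMIs, 1 of 15 was higher and 9 lower, with a median of -1.88. At that floor, 1553 of all 18200 genes were higher and 1867 lower. DLX1 stood at 26.5 against 38.7 CPM and DLX2 at 22.8 against 23.2 CPM, while SP8 was 29.5 against 17.4 CPM. The genes that mark later cells of the lineage were near 0 in members: SLC32A1, the vesicular GABA transporter, at 0.0696 CPM (2 UMIs), GAD1 at 0.104 CPM (3 UMIs), and GNRH1 at 0.800 against 9.87 CPM. A GNRH1 UMI was present in 0.0616% of thinned members and 0.271% of thinned not-dividing cells (unthinned 1.35% and 0.865%), and no member held more than 2.

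Of 19 pan-neuronal genes past the floor, 16 were at least 2-fold lower and none higher, with a median of -1.77. STMN2, a tubulin regulator of growing axons, stood at 279 against 1987 CPM (-2.83, -2.86 to -2.80), GAP43 at 32.5 against 222 CPM and ELAVL4 at 21.0 against 141 CPM. DCX, which binds the microtubules of migrating neurons, was at 164 against 535 CPM, and a DCX UMI was present in 19.3% of thinned members and 50.5% of thinned not-dividing cells. TUBB3 and MAP2 were closer, at 20.9 against 33.8 CPM and 201 against 363 CPM. STMN2 was unevenly spread. The median member had 1 STMN2 UMI, 681 members had none and 84 had at least 20. The 163 members with most held 66.1% of the members' STMN2 UMIs. STMN2 stood at 867 CPM in the 139 members with a Scrublet score of at least 0.25 and 180 CPM in the other 1485, whose median depths were 28260 and 15205 UMIs, and with such cells removed from both groups its log2 ratio was -3.45. In SOX2-positive not-dividing cells STMN2 stood at 1004 CPM.

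Other genes among the 15 lowest lay outside these lists. RSPO3 stood at 26.9 against 220 CPM (-3.03, -3.14 to -2.93), the retinoic acid binding protein CRABP1 at 18.2 against 119 CPM, and KLHL35, STMN4, SCG5, PCSK1N, ARHGAP15, BAALC and GDAP1L1 had log2 ratios from -2.93 to -2.36. The rule keeps IRX-positive cells out of the members and not out of the not-dividing cells. CRABP1 stood at 183 CPM in IRX-positive dividing cells. Against the 45.0 CPM of SOX2-positive, IRX-negative not-dividing cells its log2 ratio was -1.31 instead of -2.71. Those cells were also chosen by SOX2, so the choice by SOX2 and the choice by IRX UMIs cannot be told apart here. The part of IRX-positive cells in the CRABP1 ratio was not tested. The 15 highest outside the cell cycle lists included the kinesins KIFC1, KIF4A, KIF14, KIF18A and KIF15 and the mitotic kinases PLK1 and PBK. The others were the cohesion factors ESCO2, SGO1 and SGO2, the cytokinesis genes CEP55 and RACGAP1, the spindle pole gene ASPM, DEPDC1 and the helicase PIF1. The rule favoured mitotic genes here as well. ASPM, whose loss causes a small brain, was the most abundant of them at 442 against 4.13 CPM (log2 ratio 6.74, 6.58 to 6.91).

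Of 9 cell cycle brakes past the floor, 2 were 2-fold higher in members and 1 lower, with a median of 0.13, too few genes to set against the 7.92% and 4.22% of all genes. CDKN2C and CDKN2D, inhibitors of CDK4 and CDK6, stood at 36.8 against 1.36 CPM (4.76, 4.46 to 5.07) and 73.5 against 35.0 CPM (1.07), and BTG2, which restrains division before neuron birth, at 22.4 against 51.1 CPM (-1.19). CDKN2C passed the floor through the members alone, and with a floor of 50 CPM 1 of 8 brakes was higher and 1 lower. The log2 ratio of CDKN2D ran from 0.02 to 1.85 over the settings tried, and its levels were 36.2 and 35.8 CPM in cells of 10000 to 15000 UMIs. In those cells BTG2 stood at -0.82, so none of the 8 brakes past the floor was 2-fold higher or lower. CDKN2C was at 18.6 against 1.32 CPM there, a log2 ratio of 3.82, but under the floor and so not among the 8. CDKN1C was by far the most abundant brake at 1252 against 1799 CPM (-0.52, -0.54 to -0.51) with a median of 15 UMIs per member. A CDKN1C UMI was present in 70.4% of thinned members and 81.6% of thinned not-dividing cells (unthinned 98.0% and 98.9%). The share that free RNA in the droplets gives was not measured. CDKN1B stood at 79.3 against 43.4 CPM, and CDKN1A at 2.51 against 6.43 CPM, under the floor.

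Across classes of MKI67 and TOP2A UMIs, DLL1 and GADD45G were highest between the extremes. Over IRX-negative cells with 0, 1 to 4, 5 to 9, 10 to 19 and at least 20 UMIs, of which there were 5148, 1341, 355, 404 and 865, DLL1 stood at 219, 405, 560, 464 and 347 CPM. GADD45G, a growth arrest gene of newborn neurons, stood at 308, 481, 507, 431 and 274 CPM, and at 541 CPM (517 to 566) in the cells with 3 or 4 UMIs alone. CDKN1C peaked earlier, at 1810, 2106, 1701, 1270 and 1137 CPM. SOX2 was at 127, 188, 326, 447 and 419 CPM, highest among cells with at least 10 UMIs. STMN2 dropped most at the start, at 2045, 701, 312, 331 and 256 CPM. HES5 was highest at 10 to 19 UMIs, with 27.0, 36.7, 40.5, 46.8 and 18.2 CPM. PCNA peaked in the same class, at 73.0 CPM against 57.9 CPM in the last class, while CCNB1 climbed through all, from 16.7 to 732 CPM. The classes are made from the rule genes, so the climb of mitotic genes over them is a description only. Median depth was 11668, 11792, 11547, 12552 and 20902 UMIs, so the last class stood apart in depth. The part of depth in its values was not tested. Between members and not-dividing cells of 10000 to 15000 UMIs, the DLL1 log2 ratio was 1.34.

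**Figure D4:**
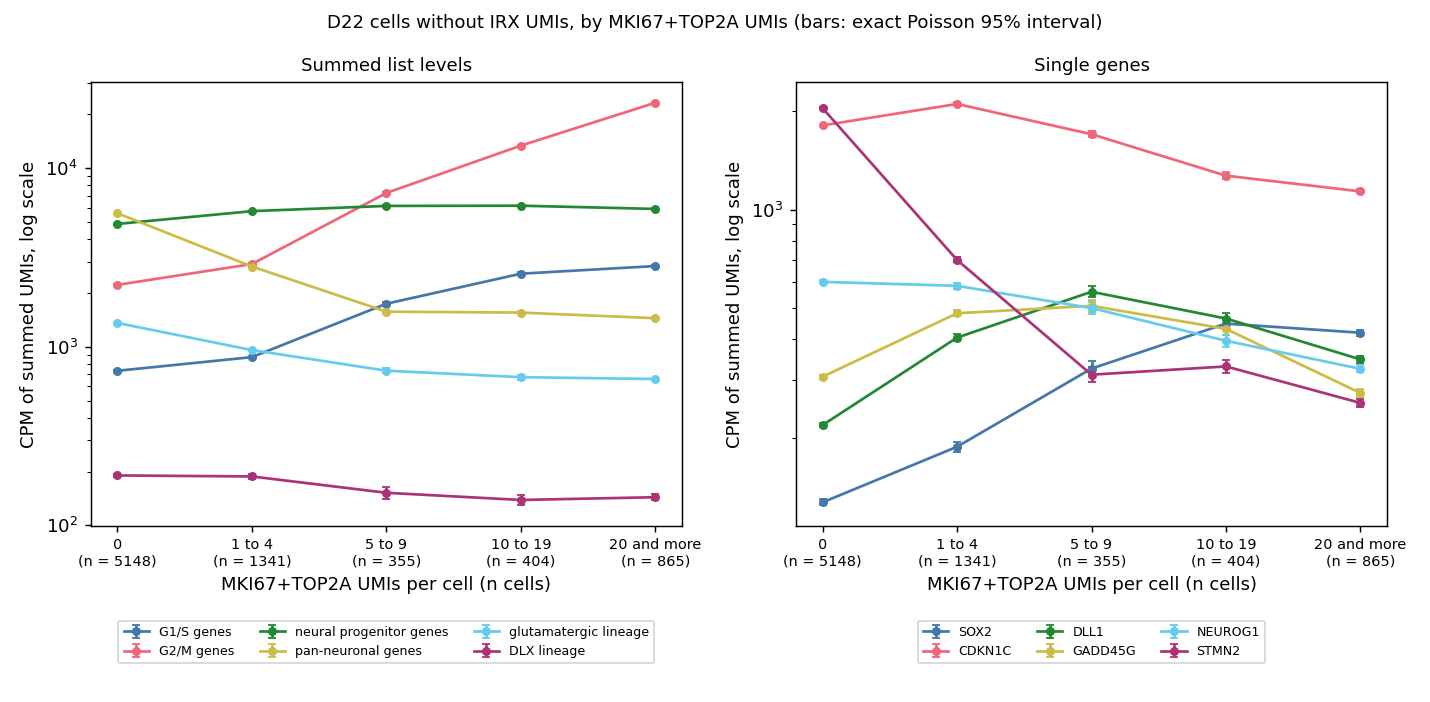
CPM of summed UMIs, on a log scale, of 6 gene lists (left) and 6 genes (right) in IRX-negative D22 cells grouped by MKI67 and TOP2A UMIs, with exact Poisson 95% intervals and the number of cells under each class. G2/M genes climb from 2220 to 23231 CPM and pan-neuronal genes drop from 5585 to 1445 CPM, while DLL1 is highest at 5 to 9 UMIs and GADD45G at 1 to 9.

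Of 18 forebrain patterning genes, 10 passed the floor and none was past 2-fold, with a median of 0.15. At the background shares few of 10 genes would be, and with no floor other than 10 UMIs 3 of 16 were lower. At that floor, 1867 of all 18200 genes were lower. SIX3, a factor of the anterior forebrain, stood at 223 against 230 CPM, FEZF2 at 390 against 348 CPM, OTX2 at 105 against 80.1 CPM and ZIC1 at 454 against 335 CPM. In members, EN1 stood at 1 UMI, GBX2 at 4 UMIs, and PAX2 and NKX2-1 at 0 UMIs, for which 3 UMIs in 28732207 were taken as the limit. Placode genes were scarce: GATA3, TFAP2B and PAX3 were at 0 UMIs in members, and only DACH1 and TFAP2C passed the floor, at 69.2 against 136 CPM and 7.62 against 32.8 CPM.

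Of 11 Wnt pathway genes past the floor, 4 were at least 2-fold higher and none lower, with a median of 0.74, where 7.92% of all genes were higher. The count was 6 of 11 against IRX-negative not-dividing cells, with a median of 1.09, where 488 of all 5969 genes were higher. It was 3 of 11 against SOX2-positive ones, where 456 of all 5887 genes were higher and TCF7L2 stood at 0.75. With a floor of 50 CPM, 1 of 6 was higher, where 255 of all 3145 genes were. With no floor other than 10 UMIs, 6 of 28 were higher and 2 lower, with a median of 0.27. At that floor, 1553 of all 18200 genes were higher and 1867 lower. All of the 4 but TCF7L2 passed the floor through the members alone. The 4 were the receptor FZD5 (26.2 against 9.03 CPM, log2 ratio 1.54), the transcription factors TCF7L1 (32.3 against 11.6 CPM) and TCF7L2 (91.5 against 44 CPM), and the secreted inhibitor FRZB (36.4 against 14.2 CPM). Feedback targets of Wnt signalling were low in both groups, with AXIN2 at 3.55 and 2.89 CPM and NKD1 at 1.15 and 1.67 CPM. None of 7 FGF pathway genes past the floor was past 2-fold, with a median of 0.23. In cells of 10000 to 15000 UMIs, FGFBP3 was higher (log2 ratio 1.06) and ETV1 lower (-1.47) among 5 genes, with a median of 0.63. Over the other settings with that floor, at most 1 gene was past 2-fold in either direction. The feedback inhibitor SPRY1 stood at 453 against 457 CPM, FGFR1 at 66.5 against 44.2 CPM, and the ligand FGF8 at 8.32 against 5.89 CPM. None of 10 apical junction genes was past 2-fold, with a median of 0.12. Of 12 extracellular matrix genes, 3 were past 2-fold higher and none lower, where 7.92% of all genes were higher. They were COL4A1 (21.7 against 5.84 CPM, 1.89), COL4A2 (78.6 against 33.6 CPM, 1.22) and COL2A1 (51.2 against 18.1 CPM). COL4A1 and COL2A1 passed the 20 CPM floor through the members alone. With a floor of 50 CPM, 2 of 9 matrix genes were higher. Of 82 ribosomal protein genes, 1 was past 2-fold higher and none lower, and together they took 233318 CPM in members and 254128 CPM in not-dividing cells.

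The summed levels in members and not-dividing cells were 4.32 and 10.8 CPM for 5 neural crest markers, 4.56 and 3.79 CPM for 6 mesenchyme markers, 3.86 and 7.88 CPM for 4 endothelium markers and 24.8 and 23.5 CPM for 6 surface ectoderm markers, mostly KRT8 and KRT18. SOX10 was at 1 UMI and FOXD3, DCN, PECAM1, TP63 and KRT5 at 0 UMIs in members. Of 9 caudal HOX genes, 8 were at 0 UMIs in members, and HOXB2 had 1. The pluripotency genes POU5F1 and NANOG stood at 5 and 10 UMIs and TDGF1 at 0, while DPPA4, at 48.8 against 55.5 CPM, was the one gene of its list past the floor.

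Dividing cells with IRX UMIs are the nearest other group: 434 D22 cells (4.55%, 4.14% to 4.99%) met the same limit of 5 MKI67 and TOP2A UMIs and had at least 1 UMI of IRX1, IRX2, IRX3 or IRX5, with a median of 20131 UMIs. A score of at least 0.25 from Scrublet was given to 16.6% of them. The part of depth and of doublets in the split by IRX UMIs was not tested. Of the 5758 genes that reached 20 CPM in either dividing group, 102 (1.77%) were at least 2-fold higher in the IRX-positive dividing cells and 3 (0.0521%) at least 2-fold lower. Cell cycle lists differed by under 2-fold, with the G2/M list at 17033 against 18774 CPM and the G1/S list at 3110 against 2606 CPM. NR2F1, a nuclear receptor that patterns the forebrain, stood at 197 CPM against 9.33 CPM in members, WLS, the carrier of Wnt ligands, at 85.2 against 5.99 CPM, CRABP1 at 183 against 18.2 CPM, SFRP2 at 440 against 93.0 CPM, PTX3 at 199 against 30.8 CPM and SOX3 at 133 against 41.5 CPM. In the other direction, DMRTA2 was past 2-fold lower, at 30.7 CPM against 63.7 CPM in members. FEZF2, at 207 against 390 CPM, and DLK1, at 2034 against 3509 CPM, were lower by less than 2-fold. CDKN1C was also lower in the IRX-positive dividing cells, at 810 against 1252 CPM.

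Against SOX2-positive not-dividing cells, 456 of 5887 genes (7.75%) were at least 2-fold higher in members and 151 (2.56%) at least 2-fold lower. The G2/M list stood at 2211 CPM and the G1/S list at 775 CPM in those cells, close to the levels in all not-dividing cells, while pan-neuronal genes were at 3462 CPM against 5459 CPM. The DLX lineage list had 3 of 7 genes past 2-fold lower here, the glutamatergic list 6 of 9 and the pan-neuronal list 11 of 18, and the progenitor list 2 of 17 higher. Against all not-dividing cells, 4 DLX lineage genes passed the floor. Those that joined here did so through the SOX2-positive cells alone, where they are high. The log2 ratio of DLL1 was 0.52 here, and DLX1 and DLX2 were lower in members, at 26.5 against 60.2 CPM and 22.8 against 34.7 CPM.

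Dividing cells were rare at the later days. At D24, 24 of 9110 kept cells met the rule (0.263%, 0.169% to 0.392%), and at D26 3 of 11060 (0.0271%, 0.00559% to 0.0792%). Median depth was 12183 UMIs in kept D22 cells, 7181 at D24 and 8486 at D26. With each kept cell thinned to 1500 UMIs, a UMI of MKI67 or TOP2A was found in 21.4% of D22, 0.692% of D24 and 0.199% of D26 cells, IRX-positive cells included. Cells with both at least 5 such UMIs and an IRX UMI were 21.1% of all cells over that limit at D22, 24 of 48 at D24 and 4 of 7 at D26. With under 50 cells, no ratio was computed for the later days. The median depth of these cells was 11117 UMIs at D24 and 33081 at D26, above that of the kept cells, and doublets were not scored at these days. The 24 cells of D24 had SOX2 at 304 CPM (246 to 371), CCNB1 at 589 CPM, STMN2 at 1660 CPM (1521 to 1808), CDKN1C at 301 CPM and no HES5 UMI, where the members of D22 had SOX2 at 410 CPM, STMN2 at 279 CPM and CDKN1C at 1252 CPM.

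**Figure D5:**
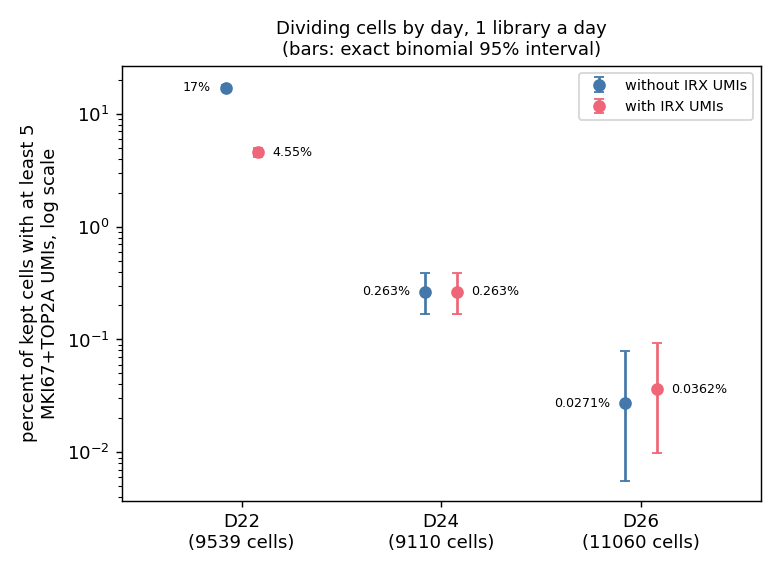
Percent of kept cells with at least 5 MKI67 and TOP2A UMIs at D22, D24 and D26, on a log scale, without IRX UMIs (blue) and with them (red), 1 library a day, with exact binomial 95% intervals. The share without IRX UMIs drops from 17.0% at D22 to 0.263% and 0.0271%, and the share with them from 4.55% to 0.263% and 0.0362%.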

How the data were processed

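Single-cell RNA-seq libraries of D22, D24 and D26 were read, 1 per day. The authors aligned reads of the 10x 3′ v3 kit to GRCh38 with Cell Ranger (3.1 per the submitters' processing notes, 3.1.0 per the file headers) and deposited UMI counts per gene and barcode without normalization. The libraries held 131583840, 71397909 and 100865176 UMIs. The tagged earlier days were not used here.

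Cells were kept and grouped by the limits given above. UMIs were summed over the cells of a group and scaled to CPM, with exact Poisson intervals for levels, exact Clopper-Pearson intervals for shares and the exact binomial interval of the UMI split for ratios, all at 95%. No test was run, because each day is 1 library. Ratios used genes with at least 20 CPM in 1 group and 3 UMIs as the floor for a count of 0; MKI67, TOP2A and the IRX genes were left out. Named genes were the 10 highest and 15 lowest ratios among genes of at least 50 CPM, the 15 highest outside the cell cycle lists, and in each list those with most UMIs or the extreme ratios; genes of the IRX-positive and lineage comparisons and others were chosen after their values were seen. Members and lists were chosen with earlier results of these data known. Doublets were scored with Scrublet in scanpy 1.11.5 (expected 6%); its automatic threshold of 0.224 marked 4.79% of kept cells. Code was checked on simulated counts. Gene positions are from GENCODE 44. Alternatives were the UMI limit, thinning, filters, doublets, comparison cells, weighting, scaling and floors. Results for some genes are not reported here.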

Additional observations from a re-analysis of the deposited data

How the results depend on the processing

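The share of dividing cells was 19.9% with at least 3 MKI67 and TOP2A UMIs and 13.3% with at least 10, and stayed within its interval under the other alternatives, with 16.5% after thinning to 5000 UMIs and 16.3% without cells of a Scrublet score of at least 0.25. The counts of 473 genes higher and 252 lower became 255 and 120 with a floor of 50 CPM, and 1553 and 1867 with no floor other than 10 UMIs. Against SOX2-positive not-dividing cells the lower count was 151. Under the other alternatives they ran from 394 to 513 and from 224 to 300. The value of 394 higher genes, with 291 lower, is that of cells of 10000 to 15000 UMIs in both groups, a setting chosen after seeing the data.

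The SOX2 log2 ratio of 1.59 was 1.52 with at least 3 UMIs, 1.64 with at least 10, 1.65 without cells of a Scrublet score of at least 0.25, 1.69 against IRX-negative cells, 1.65 as a mean over cells, 1.63 with totals that leave out the cell cycle lists and 1.63 at 10000 to 15000 UMIs. That scaling moved the median log2 ratio of all genes from -0.02 to 0.03. The leave-out of lineage members by doublet score was also chosen after seeing the data. No paired analysis was possible because each day is 1 library. Depth limits genes under 20 CPM, and no interval covers the spread between cultures.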
